A study of Sus scrofa with 48 samples.

Results

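The genes described here are 8 genes that hold back cell growth or that carry insulin and glucocorticoid signals to such genes: GADD45A, GADD45B, CCNG2, CDKN1A, SGK1, NR3C1, KLF11 and AKT1. They were chosen by name, with earlier results of these data known, and every probe set of the pig array that carries one of these symbols alone was taken. Counts of calls set beside the share over all probe sets or genes are therefore descriptions and no test of the set. This gave 14 probe sets of 23999 tested, or 8 of 6765 named genes. GADD45A, CCNG2, CDKN1A and SGK1 have 1 probe set each, GADD45B, KLF11 and AKT1 have 2 each, and NR3C1 has 4.

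Insulin acts through the kinase AKT1, which phosphorylates FOXO transcription factors and keeps them out of the nucleus. When insulin falls, as in fasting, FOXO proteins enter the nucleus and can switch on genes of growth arrest and stress, among them CCNG2 and members of the GADD45 family. Glucocorticoid hormones also rise in fasting and act through the receptor that NR3C1 encodes, which has its own target genes, SGK1 among the best known.

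RNA was measured on 48 Affymetrix arrays, 1 of the liver and 1 of the fat of each of 24 Yorkshire gilts. Every gilt was 6 months old and descended from a line in which high feed efficiency had been bred through selection for low residual feed intake. They were homozygous either for D298, the wildtype form of the melanocortin 4 receptor MC4R, which acts in the brain on appetite, or for the variant N298. Within each genotype, gilts either had free access to feed or went without it for 3 days, so each of 8 groups of tissue, genotype and feeding held 6 arrays. The fat depot is not given in the sources used here, and both tissues are mixtures, in which fewer cells of a type and less RNA per cell cannot be told apart.

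Each array came scaled to a mean signal of 500 after 2% of values were trimmed at each end, and the median signal of an array ranged from 159 to 192 in fat and from 122 to 149 in liver. The adipocyte markers ADIPOQ, FABP4, LEP and LPL summed to between 41413 and 69626 in fat and to at most 544 in liver. The hepatocyte markers summed to at least 170079 in liver, and the median signal of ALB was 42705 there and 199 in fat. Skeletal muscle markers (MYH2, CKM, NEB and TTN) varied widely between fat arrays, from a sum of 153 to 62840, and passed 10000 in 5 of 12 fasted and 4 of 12 fed arrays. Levels below are log2 signals, differences are log2 differences of a linear model (limma) with their SE, and a probe set is called at a Benjamini-Hochberg adjusted p under 0.05 over all 23999 probe sets, with p-values that measure the spread between gilts. Where a gene has several probe sets they are named by their mean signal, the brightest first.

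The main comparison asks how fat and liver answer to 3 days without feed. In fat, 7 of the 8 genes were called by their brightest probe set: KLF11, GADD45B, GADD45A, NR3C1, CCNG2 and AKT1 rose, CDKN1A fell, and SGK1 was not called. Counted by probe sets, 10 of 14 were called, 9 higher and 1 lower, where 25.2% of all probe sets were called, 15.1% higher and 10.1% lower. By genes the background was 34.2%, with 15.3% higher and 18.9% lower. The median difference of the 14 probe sets was 0.42, against 0.08 over all probe sets. In liver only SGK1 was called among the 8 genes, and it fell. That is 1 of 14 probe sets, where 4.47% of all probe sets were called, 2.27% higher and 2.2% lower, or 1 of 8 genes, where 7.2% of genes were.

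**Figure D1:**
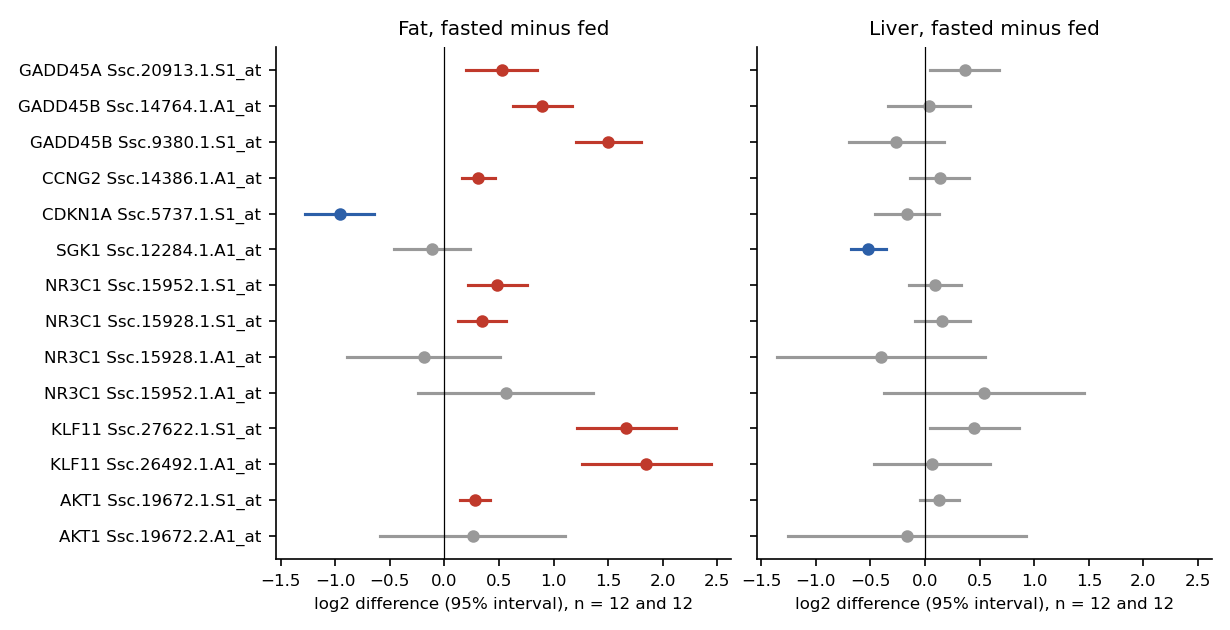
Log2 difference, fasted minus fed, of each of the 14 probe sets in fat (left) and liver (right). Points are the model's estimate over both genotypes and lines its 95% interval, from 12 fasted and 12 fed arrays per tissue; red marks called rises, blue called falls and grey probe sets that were not called. The 2 probe sets of KLF11 lie furthest to the right in fat, at 1.67 and 1.85, and the only coloured point in liver is SGK1, at -0.52.

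KLF11, a Krüppel-like zinc finger factor that represses growth-promoting genes downstream of TGF-beta, had the largest response of the 8 genes in fat. On its brighter probe set the 6 fed D298 arrays ranged from 6.70 to 9.69 with a median of 7.97, and the 6 fasted D298 arrays from 9.57 to 10.34 with a median of 9.80. The fed N298 arrays ranged from 7.19 to 9.04 with a median of 7.94, and the fasted N298 arrays from 9.54 to 9.89 with a median of 9.65. Fed gilts were thus spread widely while fasted gilts lay close together, and a single fed array, D298 replicate 1, reached the fasted range. The same array had the lowest CDKN1A signal of the fed fat arrays, 10.19. The difference of KLF11 was 1.67 ± 0.22 (adjusted p = 8.87e-06), or 3.18-fold. The second probe set rose by 1.85 ± 0.28 (adjusted p = 4.81e-05), with fed arrays from 5.76 to 9.18 and fasted arrays from 8.93 to 9.83.

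GADD45B, a stress sensor that binds kinases and cell cycle proteins, also rose in fat on both of its probe sets. On the brighter one the fed arrays ranged from 6.96 to 8.32 (median 8.12) in D298 and from 7.61 to 8.42 (median 8.23) in N298. The fasted arrays ranged from 8.56 to 9.28 (median 8.85) in D298 and from 8.87 to 9.15 (median 9.05) in N298. All 12 fasted arrays lay above all 12 fed arrays, and the difference was 0.90 ± 0.13 (adjusted p = 2.93e-05), or 1.86-fold. On the second fed arrays ranged from 6.74 to 8.75 and fasted arrays from 8.86 to 9.95, again with no overlap, and the difference was 1.502 ± 0.14 (adjusted p = 1.79e-07), or 2.83-fold. Of all probe sets, 1.69% did not overlap between fed and fasted fat, 0.579% higher and 1.11% lower, and among the 14 these 2 did not.

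GADD45A, the paralog of GADD45B that is induced by DNA damage and starvation, rose less and with overlap. Its 12 fed arrays in fat ranged from 9.52 to 11.03 with a median of 10.75, and its 12 fasted arrays from 10.42 to 11.69 with a median of 11.01. The difference was 0.52 ± 0.16 (adjusted p = 0.0175), and 9 of 12 fasted arrays were above the fed array of the same genotype and number. Such a pair of fed and fasted arrays comes from different gilts, here and below. Much of the gap lay in N298, where the group means differed by 0.84 against 0.20 in D298, but the interaction, 0.64 with a 95% interval from -0.02 to 1.30, was not called (adjusted p = 0.875). The call was lost without replicate 3 (0.38, adjusted p = 0.0757), without replicate 4 (0.47, adjusted p = 0.0510) and after median-centring of the arrays (0.44, adjusted p = 0.0561).

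CDKN1A encodes p21, the inhibitor of cyclin-dependent kinases that is the best known arrest gene of the 8, and it was the only one of the 7 called genes that fell in fat. Fed arrays ranged from 10.19 to 11.79 (median 11.23) in D298 and from 10.31 to 11.59 (median 11.49) in N298. Fasted arrays ranged from 9.44 to 10.55 (median 10.11) in D298 and from 10.02 to 10.94 (median 10.23) in N298. Every fasted array was below the fed array of the same genotype and number, in 12 of 12 pairs. Regardless of number, 6 of 12 fasted arrays lay below the lowest fed array, and the lowest fed arrays overlapped the fasted range. The level fell by 0.96 ± 0.15 on the log2 scale (adjusted p = 7.63e-05), to 51.4% of that in fed gilts. CCNG2, an unusual cyclin that slows rather than drives division, rose by 0.31 ± 0.073 (adjusted p = 0.00301), from a fed median of 10.87 (range 10.55 to 11.20) to a fasted median of 11.19 (range 10.93 to 11.60). It was higher in 11 of 12 pairs.

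The glucocorticoid receptor NR3C1 rose in fat on both of its bright probe sets. On the brightest fed arrays ranged from 8.23 to 9.82 (median 9.23) and fasted arrays from 9.05 to 9.87 (median 9.76), and the difference was 0.49 ± 0.13 (adjusted p = 0.00804). On the second fed arrays ranged from 8.24 to 9.45 and fasted arrays from 9.001 to 9.79, with a difference of 0.35 ± 0.11 (adjusted p = 0.0193), which lost its call without replicate 3 (0.26, adjusted p = 0.107). AKT1, the kinase that restrains FOXO, rose by 0.28 ± 0.067 (adjusted p = 0.00357) on its brighter probe set, from a fed median of 10.91 (range 10.63 to 11.43) to a fasted median of 11.15 (range 10.97 to 11.59). After median-centring this difference was 0.19 and no longer called (adjusted p = 0.102). SGK1, a kinase related to AKT1 that glucocorticoids induce, was spread over a wide range in fed fat, from 9.09 to 10.67, and lay at 9.11 to 10.17 in fasted fat. Its difference in fat was -0.11 with a 95% interval from -0.46 to 0.23.

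**Figure D2:**
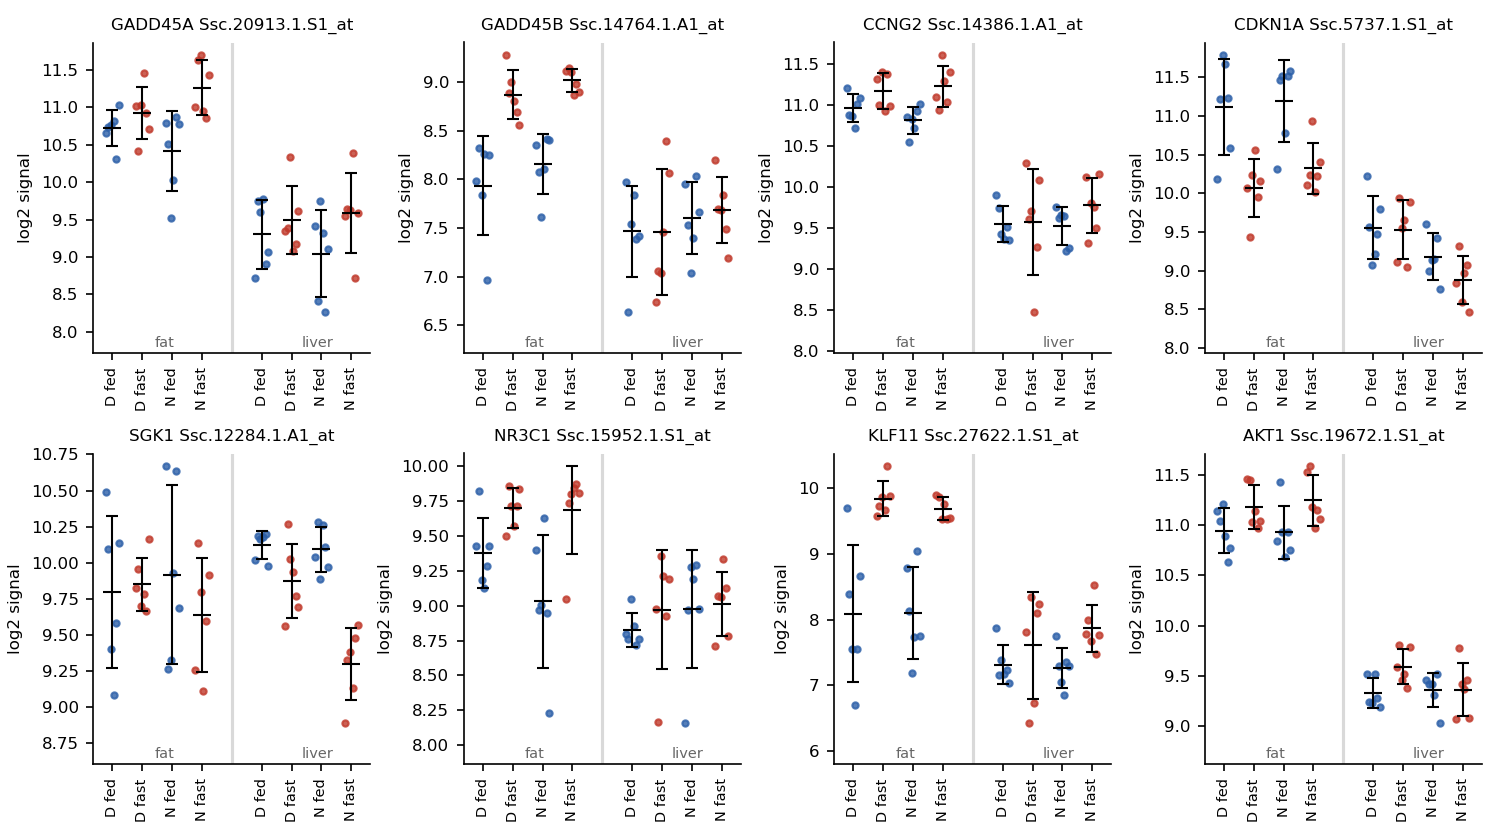
Log2 signal of the brightest probe set of each of the 8 genes on every array, by tissue, genotype (D for D298, N for N298) and feeding (blue fed, red fasted). Each point is an array, the black marks are the group mean and SD (n = 6), and axes do not start at 0 and differ between panels. In fat the fasted groups of KLF11 and GADD45B lie above the fed ones and those of CDKN1A below, and in liver the fasted N298 group of SGK1 is the lowest, from 8.89 to 9.57.

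Markers of other cell types moved with feeding in fat. The endothelial markers PECAM1, VWF, CDH5, KDR and TEK summed to between 10937 and 18564 in fasted and between 9000 and 12425 in fed fat, and 3 of 5 were called higher. The fibroblast markers COL3A1, DCN and LUM summed to between 16461 and 25943 in fasted and 23371 to 32188 in fed fat, with LUM called lower. Of 4 adipocyte markers LPL was called lower (-1.03), and of 6 hepatocyte markers APOA1 was called higher (0.70). The other 5 hepatocyte markers went the other way and were not called, with a median of -0.52 over the 6. APOA1 had a median signal of 5517 in fat, against 199 for ALB. The part of these cells in the responses of the 8 genes was not tested. Without the 9 fat arrays rich in muscle markers, 5 of 14 probe sets were called in fat, those of KLF11, GADD45B and CDKN1A, while the calls in the whole table fell from 6048 to 3117. There KLF11 rose by 1.48 and 1.49, GADD45B by 1.01 and 1.73, and CDKN1A fell by 1.12 on the log2 scale. GADD45A gave 0.31 (adjusted p = 0.224), CCNG2 0.33 (adjusted p = 0.0625), NR3C1 0.41 and 0.34 (adjusted p = 0.137 and 0.157) and AKT1 0.29 (adjusted p = 0.146). With the muscle marker sum as a covariate on all 24 arrays, 10 probe sets were called.

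**Figure D3:**
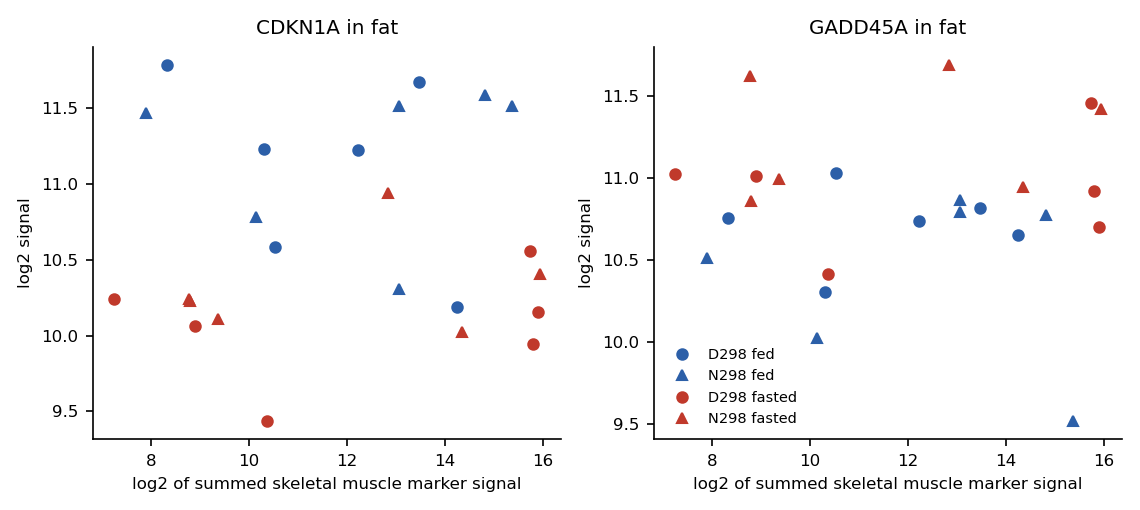
Log2 signal of CDKN1A (left) and GADD45A (right) in fat against the log2 of the summed signal of 4 skeletal muscle markers. Each point is 1 of 24 arrays, blue fed and red fasted, circles D298 and triangles N298. Fasted arrays lie low for CDKN1A at both ends of the muscle axis, and the lowest GADD45A value, 9.52, belongs to a fed N298 array rich in muscle markers.

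In liver SGK1 was the exception. Fed arrays were tightly grouped, from 9.98 to 10.20 (median 10.17) in D298 and from 9.89 to 10.29 (median 10.08) in N298. Fasted arrays ranged from 9.56 to 10.27 (median 9.85) in D298 and from 8.89 to 9.57 (median 9.36) in N298. In N298 all 6 fasted arrays lay below the lowest fed array of that genotype, and in D298 4 of 6 did. The share of all probe sets that separate in this way within 1 genotype was not counted. The interaction of SGK1 in liver was not called (adjusted p = 0.850). Over both genotypes the level fell by 0.52 ± 0.077 on the log2 scale (adjusted p = 0.000175), to 69.7% of that in fed gilts, and 11 of 12 fasted arrays were below the fed array of the same genotype and number.

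The other members were not called in liver. With SGK1, 3 of 14 probe sets had an unadjusted p under 0.05, where 16.7% of all probe sets did, and the other 2 were those of GADD45A and KLF11. GADD45A ranged from 8.27 to 9.78 in fed and from 8.72 to 10.40 in fasted liver, a difference of 0.36 ± 0.15 (adjusted p = 0.212). KLF11 ranged from 6.86 to 7.87 in fed and from 6.43 to 8.52 in fasted liver on the brighter probe set, a difference of 0.45 ± 0.20 (adjusted p = 0.241), while its second probe set gave 0.06. The differences of GADD45B were 0.04 and -0.26, that of CCNG2 0.13, of CDKN1A -0.17, of AKT1 0.13, and of the bright NR3C1 probe sets 0.09 and 0.16. Their 95% intervals hold 0, and for CDKN1A the interval ran from -0.46 to 0.13.

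Whether the fasting responses of the tissues differ was tested in 1 model of the 48 arrays, in which the liver and fat of a gilt were treated as correlated. The responses of 5 of 14 probe sets differed, 4 higher in fat and 1 lower, where 16.1% of all probe sets did, 8.84% higher and 7.26% lower. The response in fat exceeded that in liver by 0.86 ± 0.22 and 1.77 ± 0.28 for GADD45B (adjusted p = 0.00432 and 4.71e-06) and by 1.22 ± 0.30 and 1.79 ± 0.39 for KLF11 (adjusted p = 0.00298 and 0.000814). That of CDKN1A was lower in fat, with a difference of -0.79 ± 0.23 (adjusted p = 0.0110), a call that was lost without replicate 2 (-0.58, adjusted p = 0.141). The differences of SGK1 (0.41, adjusted p = 0.145) and of NR3C1 on its brightest probe set (0.40, adjusted p = 0.124) were called only without replicate 1 (0.53, adjusted p = 0.0470, and 0.58, adjusted p = 0.0161). For GADD45A the interval of the tissue difference ran from -0.33 to 0.64, so its call in fat alone does not set the tissues apart.

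In fed gilts 10 of 14 probe sets were called higher in fat than in liver and 0 lower, where 62.3% of all probe sets were called, 40.2% higher and 22.1% lower. The differences were 1.79 ± 0.16 for CDKN1A, 1.60 ± 0.085 for AKT1, 1.39 ± 0.17 for GADD45A and 1.35 ± 0.12 for CCNG2. The level of CDKN1A followed the order fed fat (mean 11.15 ± 0.55, SD, n = 12), fasted fat (10.19 ± 0.36), fed liver (9.37 ± 0.40) and fasted liver (9.20 ± 0.48), and the 2 liver groups did not differ beyond their spread. KLF11 followed the order fasted fat (9.77 ± 0.23), fed fat (8.10 ± 0.85), fasted liver (7.74 ± 0.62) and fed liver (7.29 ± 0.29), and the ranges of the 3 lower groups overlapped. SGK1 was highest in fed liver (10.11 ± 0.12), followed by fed fat (9.86 ± 0.55), fasted fat (9.75 ± 0.31) and fasted liver (9.59 ± 0.38). Neighbours in this order did not differ beyond their spread. The 2 liver groups were called as different, although their ranges overlapped (9.89 to 10.29 in fed and 8.89 to 10.27 in fasted liver).

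The order of the other members was fasted fat, fed fat, fasted liver and fed liver. For GADD45A the means were 11.09 ± 0.38, 10.57 ± 0.43, 9.54 ± 0.47 and 9.17 ± 0.52 (SD, n = 12), and for CCNG2 11.20 ± 0.23, 10.89 ± 0.18, 9.67 ± 0.50 and 9.54 ± 0.21. For AKT1 they were 11.22 ± 0.23, 10.94 ± 0.23, 9.47 ± 0.24 and 9.34 ± 0.16, so fat lay above liver by more than the spread for these 3 genes. For GADD45B the brighter probe set gave 8.95 ± 0.20, 8.05 ± 0.42, 7.57 ± 0.51 and 7.54 ± 0.41, and for NR3C1 the brightest gave 9.69 ± 0.23, 9.20 ± 0.41, 8.99 ± 0.33 and 8.90 ± 0.31. The 2 liver groups of these genes did not differ beyond their spread. Scaling bears on the comparison of the tissues: median-centring moved the median of all probe sets from 0.21 to -0.08, and with it GADD45B (0.51 and 0.69) and NR3C1 on its brightest probe set (0.30) lost their calls and SGK1, at -0.25, became called at -0.54. NR3C1 also lost that call without replicate 1 (0.18), 2 (0.26) or 4 (0.29), and SGK1 became called without replicate 1 (-0.41).

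The design also asks whether the MC4R genotype changes these genes or their response to fasting. By limma 0 of 14 probe sets were called for genotype or for the interaction in either tissue, where 0.0% of all probe sets were. At an unadjusted p under 0.05 there were 2 of 14 for genotype in liver, where 5.05% of all probe sets passed, 2 of 14 for the interaction in liver, where 5.79% passed, and 0 of 14 for either in fat, where 5.5% passed for genotype and 5.7% for the interaction. SGK1 stood at -0.30 ± 0.077 for N298 minus D298 in liver (adjusted p = 0.691), and its fasting response was -0.79 in N298 and -0.25 in D298, an interaction of -0.55 ± 0.15 (adjusted p = 0.850). CDKN1A in liver stood at -0.52 ± 0.14 for genotype (adjusted p = 0.782), with D298 arrays from 9.08 to 10.22 fed and 9.04 to 9.94 fasted, and N298 arrays from 8.77 to 9.61 fed and 8.47 to 9.32 fasted. GADD45B on its second probe set gave an interaction of -0.99 ± 0.42 in liver (adjusted p = 0.850), and its other probe set gave 0.09. None of these passed the adjustment.

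Lists of other genes of the same pathways are described by counts, each gene by its brightest probe set. They too were chosen with earlier results of these data known. Of 18 measured glucocorticoid-responsive genes, 0 were called higher and 5 lower in fasted liver, with a median of -0.30 against 0.00 over all named genes. Over all genes 4.09% were called higher and 3.1% lower in liver. The 5 were TSC22D3, which encodes the anti-inflammatory mediator GILZ, at -1.08 ± 0.21, GLUL, glutamine synthetase, at -1.03 ± 0.15, KLF9 at -0.76 ± 0.12 and, named after their values were seen, the clock gene PER1 at -0.56 and CEBPD at -0.61. PER1 lost its call without replicate 1 (adjusted p = 0.0601) or 6 (adjusted p = 0.0711). In fat 3 of the 18 were called higher and 1 lower, where 15.3% of all genes were called higher and 18.9% lower, so the share of rises was close to that background: ANGPTL4, an inhibitor of lipoprotein lipase, rose by 1.32 ± 0.25, THBD by 0.82 ± 0.15 and CRISPLD2 by 0.49 ± 0.15, and ANXA1 fell by 0.63 ± 0.086 on the log2 scale. CRISPLD2 lost its call without replicate 2, 3, 4 or 5 (adjusted p from 0.0609 to 0.0923). The tissue difference of the response was called for 7 of the 18, 6 higher and 1 lower in fat, where 24.0% of genes were called, 8.91% higher and 15.1% lower. That of CEBPD (0.74) was no longer called after median-centring (0.60, adjusted p = 0.0617), nor without replicate 2 (adjusted p = 0.106) or 5 (adjusted p = 0.0810). TSC22D3 stood at -0.00 in fat, and its response differed between the tissues by 1.08 ± 0.24 (adjusted p = 0.000775), as did those of GLUL (1.32 ± 0.23, adjusted p = 4.23e-05) and KLF9 (0.83 ± 0.16, adjusted p = 0.000131). The other probe set of KLF9 went the other way, at 0.20 in liver and -0.24 in fat, and was called in neither.

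**Figure D4:**
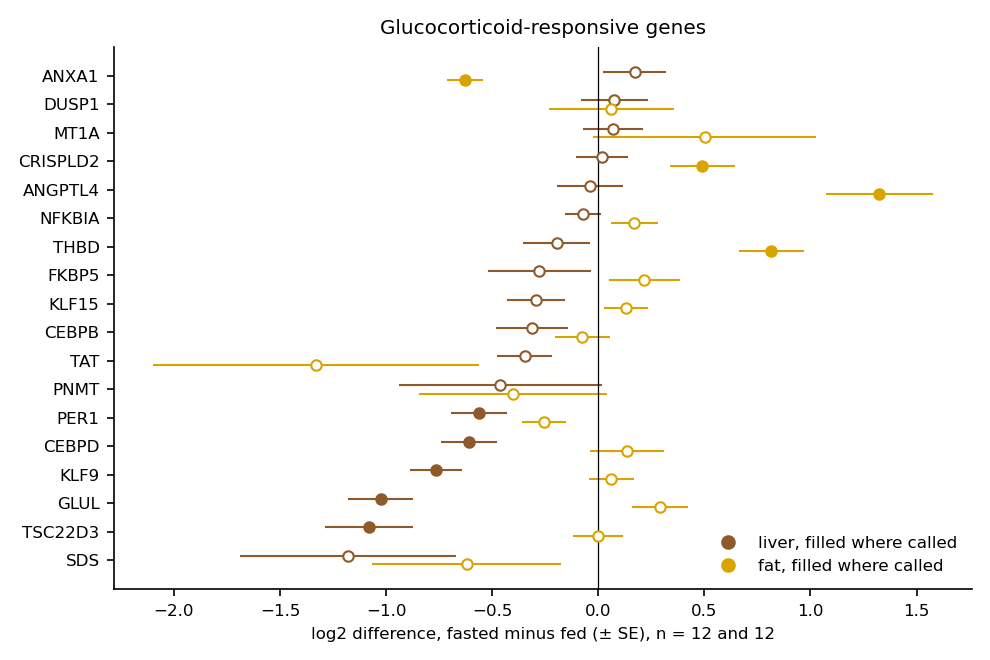
Log2 difference, fasted minus fed, of 18 glucocorticoid-responsive genes in liver (brown) and fat (yellow), ordered by the value in liver. Points are the model's estimate from 12 fasted and 12 fed arrays with its SE, filled where called. The 5 filled liver points all lie to the left of 0, from PER1 at -0.56 to TSC22D3 at -1.08, and 3 of the 4 filled fat points lie to the right.

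Of 19 FOXO target genes, 7 were called higher and 1 lower in fasted fat, and 0 higher and 1 lower in fasted liver. Over all genes 15.3% were called higher and 18.9% lower in fat, and 4.09% and 3.1% in liver. In fat SOD2, the mitochondrial superoxide dismutase, rose by 0.66 ± 0.10, CDKN1B, which encodes the kinase inhibitor p27, by 0.59 ± 0.090 and the autophagy gene GABARAPL1 by 0.59 ± 0.094, and PRDX3 fell by 0.34 ± 0.067 on the log2 scale. Named after their values were seen, the other called rises were PCK1 at 1.45, TNFSF10 at 1.15, FBXO32 at 0.95 and MAP1LC3B at 0.27. FBXO32 lost its call without replicate 2, 3 or 4 (adjusted p from 0.0551 to 0.111), and without the muscle-rich arrays 3 of the 7 rises were left. In that fit 13.0% of all probe sets were called for fasting in fat, 1731 of 23999 higher and 1386 lower. In liver GABARAPL1 stood at -0.28 ± 0.079 (adjusted p = 0.0447), a call that was lost without replicate 2, 3, 4, 5 or 6 (adjusted p from 0.0585 to 0.174). CDKN1B rose in the same fat arrays in which CDKN1A, an inhibitor of the same family, fell. The response differed between the tissues for 9 of the 19, 8 higher and 1 lower in fat, where 24.0% of all genes were called, 8.91% higher and 15.1% lower. GABARAPL1 (0.87 ± 0.12, adjusted p = 7.03e-07) and SOD2 (0.91 ± 0.18, adjusted p = 0.000167) were among the higher ones. Without the muscle-rich arrays 4 of the 19 were called higher and 0 lower. There 11.4% of all probe sets were called for the tissue difference, 1362 of 23999 higher and 1366 lower. After median-centring the tissue differences of CDKN1B (0.30, adjusted p = 0.0773) and MAP1LC3B (0.26, adjusted p = 0.144) were no longer called. That of CDKN1B was also lost without replicate 2 (adjusted p = 0.0608) or 5 (adjusted p = 0.0869). That of MAP1LC3B was lost without replicate 4 (adjusted p = 0.0567).

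Of 15 other growth arrest genes, 3 were called higher in fat and 0 in liver, a count in fat near the 15.3% of all genes called higher there. They were CDKN1B, the antiproliferative gene BTG1 at 0.33 ± 0.064, and PLK2 at 0.46 ± 0.13, which lost its call without replicate 1 (adjusted p = 0.0831) or 3 (adjusted p = 0.0822). Of 6 measured cell division genes that arrest holds back, 3 were called lower in fat, where 18.9% of all genes were: the mitotic cyclins CCNB1 at -1.82 ± 0.33 and CCNB2 at -1.75 ± 0.54, and PCNA, the sliding clamp of DNA replication, at -0.30 ± 0.069. Both cyclins were dim in fasted fat, CCNB1 with a mean of 5.55 (lowest 2.09) and CCNB2 with a mean of 4.66 (lowest 0.035). With 32 added to each signal CCNB2 fell by less, at -0.80 (adjusted p = 0.0163). CCNB2 lost its call without replicate 2, 4 or 6 (adjusted p from 0.0510 to 0.0686). In liver CDK2 alone was called lower, at -0.37 ± 0.090, and not without replicate 1, 4, 5 or 6 (adjusted p from 0.0576 to 0.0890). Of 6 other Krüppel-like factors KLF10, like KLF11 a TGF-beta inducible early gene, was called higher in fat at 0.52 ± 0.13 and KLF9 lower in liver.

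Of 12 genes whose products work with the glucocorticoid receptor, 4 were called higher and 3 lower in fat, where 15.3% and 18.9% of all genes were, and 0 in liver, where 7.2% were called in either direction. HSD11B1, the enzyme that regenerates active glucocorticoid inside the cell, rose by 0.92 ± 0.17, and the cofactors NCOR1 and NCOA1 rose by 0.41 ± 0.062 and 0.32 ± 0.073. The fourth rise, named after its value was seen, was NCOA2 at 0.24, which lost its call without replicate 1, 2, 3, 4 or 5 (adjusted p from 0.0626 to 0.167). The chaperone FKBP4, which carries the receptor to the nucleus, fell by 1.07 ± 0.12 on the log2 scale, STIP1 by 0.34 ± 0.076 and HSP90AA1 by 0.27 ± 0.077. HSP90AA1 lost its call without replicate 3 (adjusted p = 0.0888) or 4 (adjusted p = 0.0757). Of 14 genes between the insulin receptor and FOXO, SGK2 was called higher in liver at 0.71 ± 0.13, and in fat PDPK1, the kinase that activates AKT1, rose by 0.32 ± 0.079. In fat the list had 2 of 14 called higher and 3 lower, near the 15.3% and 18.9% of all genes. In liver it had 1 higher and 0 lower, where 4.09% and 3.1% of all genes were. Of the 5 called in fat, 4 are 14-3-3 genes, whose proteins hold phosphorylated FOXO in the cytoplasm. Their directions were mixed: YWHAH was called higher at 0.45 ± 0.076, YWHAB, YWHAZ and YWHAQ were called lower at -0.30, -0.49 and -0.16, and YWHAE, at -0.04, was not called. YWHAZ lost its call without replicate 1, 2, 3 or 4 (adjusted p from 0.0697 to 0.0983) and YWHAQ without replicate 1, 2, 3, 4 or 6 (adjusted p from 0.0623 to 0.192), and without the muscle-rich arrays 0 of these 14 were called. In the other lists PRDX3, PLK2, CCNB2, HSP90AA1 and NCOA2 were also not called without these arrays, CRISPLD2, PLK2, MAP1LC3B and NCOA2 not after median-centring, and PRDX3, HSP90AA1, YWHAQ and NCOA2 not after quantile normalization. The FOXO factors themselves, named after their values were seen, were not called in either tissue: FOXO1 stood at -0.44 ± 0.14 in liver (adjusted p = 0.0733) and 0.29 ± 0.15 in fat (adjusted p = 0.171), and FOXO3 at -0.98 ± 0.29 in liver (adjusted p = 0.0628) and 0.21 ± 0.18 in fat (adjusted p = 0.446). Their responses differed between the tissues, by 0.73 ± 0.24 for FOXO1 (adjusted p = 0.0277) and by 1.19 ± 0.36 for FOXO3 (adjusted p = 0.0161). The first call was lost without replicate 2, 3, 4 or 5 (adjusted p from 0.0611 to 0.0827) and after median-centring (0.58, adjusted p = 0.0843). That of FOXO3 was lost without replicate 4 (adjusted p = 0.0735) and without the muscle-rich arrays (0.99, adjusted p = 0.129).

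For each member called for fasting, the probe sets whose level followed it most closely over the 24 arrays of that tissue were sought among 6231 candidates in fat and 6530 in liver. KLF11 in fat was followed by CPT1A (r = 0.918, rho = 0.872), which carries fatty acids into mitochondria, and by ANGPTL4 (r = 0.914, rho = 0.782). These correlations include the shared response to fasting. Deviations from the group means gave r = 0.803 for CPT1A and 0.868 for ANGPTL4, and fed gilts with higher KLF11 tended to have higher CPT1A and ANGPTL4. CDKN1A was followed by UBE2N (r = 0.892) and SRPRA (r = 0.882), and GADD45B by TCTN3 (r = 0.885) and RAB9A (r = 0.878). CCNG2 was followed by FASTKD1 (r = 0.829) and DOPEY1 (r = 0.785), AKT1 by POLDIP3 (r = 0.784) and WIPI2 (r = 0.779), and GADD45A by KIAA1429 (r = 0.777) and MARCH7 (r = 0.752). NR3C1 was followed by the endothelial receptor TEK (r = 0.827, rho = 0.772), with r = 0.761 for the deviations, and by CAST (r = 0.824). This TEK probe set, from 6.10 to 8.72 in log2 signal, is not the one among the endothelial markers. That one is brighter, with a median signal of 984 in fat, and was not among the closest to NR3C1. In liver SGK1 was followed by ZCCHC24 (r = 0.771) and TM7SF2 (r = 0.749), with r = 0.485 and 0.326 for the deviations. All arrays of a tissue share their scaling, and no test was made.

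**Figure D5:**
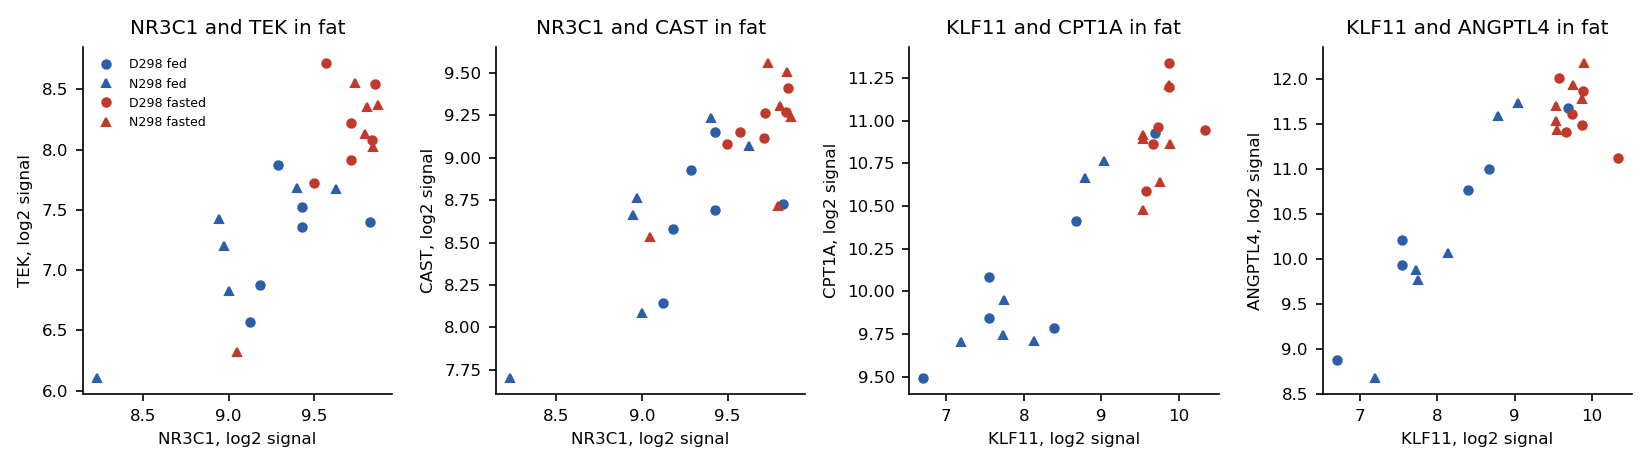
Log2 signals in fat of NR3C1 against TEK (a dimmer probe set than that of the endothelial markers) and CAST, and of KLF11 against CPT1A and ANGPTL4. Each point is 1 of 24 arrays, blue fed and red fasted, circles D298 and triangles N298. Fed arrays range widely in both KLF11 and CPT1A (r = 0.918 over all arrays), while fasted arrays gather at the upper end, and the lowest NR3C1 array also has the lowest TEK.

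Whether the 8 genes varied together among gilts of 1 group was examined on deviations from the group means, with 74 correlations in both tissues and 100000 permutations within groups, adjusted over the 74. The 2 probe sets of KLF11 followed each other in fat (r = 0.957, rho = 0.947, permutation p = 1e-05 for both, the smallest these permutations can give, adjusted p = 0.00074) and in liver (r = 0.830, adjusted permutation p = 0.0130). Between different genes 0 of 28 pairs in either tissue passed by both r and rho. By r alone SGK1 followed KLF11 in fat (r = 0.725, permutation p = 0.0011, adjusted p = 0.0204), where rho was 0.634 (adjusted p = 0.115). Without the 2 arrays farthest from the median r was 0.659, and with the means of the replicate numbers removed it was 0.640. GADD45A followed GADD45B in fat (r = 0.583, adjusted permutation p = 0.0222, rho = 0.500 with adjusted p = 0.115, and r = 0.526 without 2 arrays), and CDKN1A followed AKT1 in liver (r = 0.609, adjusted permutation p = 0.0254, rho = 0.603 with adjusted p = 0.0651, and r = 0.549 without 2 arrays).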

How the data were processed

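Liver and fat RNA was labelled by the one-cycle method and hybridised to Affymetrix arrays. The deposited values are signal intensity on a linear scale, 1 per probe set and array, made by the authors with affy and MAS5 per the submitters' processing notes, whose versions are not given in the sources used here. Their log2 was taken with nothing added. Of 24123 probe sets, 124 controls were left out and none was filtered for dim signal, so a low signal can be background. All 14 member probe sets matched a RefSeq gene by gene ID.

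In each tissue limma 3.58.1 (R 4.3.3, lmFit and eBayes with trend) was fitted to 4 groups with the replicate number as a block of 6, since the labels describe a block design. Both tissues together were fitted with the gilt, joined by genotype, feeding and number, as a random block (within-gilt correlation 0.0841). Tests are 2-sided. Fits were tested on simulated data. The number of arrays limits the precision.

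The members and lists were chosen with earlier results of these data known. Named are all member probe sets, up to 3 called genes per list, tissue and direction by p, and for each called member the 2 most correlated genes. Lists that held no further result (macrophage, lymphocyte and erythroid markers) had 0, 0 and 1 members called in fat. Alternatives were quantile normalization, median-centring, 32 added to each signal, a filter that kept brighter probe sets, no block, the gilt as a fixed block, no trend in eBayes, and leaving out each replicate number. Chosen after seeing the data were fits without 9 fat arrays whose muscle marker sum passed 10000 and with that sum as a covariate. Tables and figures used pandas 2.3.3, SciPy 1.17.1 and Matplotlib 3.10.9.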

Additional observations from a re-analysis of the deposited data

Results flagged for a closer look

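Of 112 groups of 6 arrays (14 probe sets in 8 groups), 14 held an array whose gap to the nearest other, over the group's range, exceeded Dixon's critical value. Chance flags about 1 in 20 groups. In fat GADD45B was low on fed D298 replicate 5 on its brighter probe set (6.96, nearest 7.84). On its second it was low on fed N298 replicate 3 (6.79, nearest 7.78) and high on fasted N298 replicate 2 (9.95, nearest 9.31). AKT1 was high on fed N298 replicate 2 (11.43, nearest 10.93). NR3C1 on its brightest probe set was low on fasted N298 replicate 1 in fat (9.05, nearest 9.73), and in liver on fasted D298 replicate 2 (8.17, nearest 8.93) and fed N298 replicate 1 (8.16, nearest 8.97). The same fasted D298 replicate 2 was low in liver on the second (7.39, nearest 8.53).

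The other outlying values belong to dim NR3C1 probe sets. On the third in brightness fed D298 replicate 1 in liver stood at 6.01, and in fat fed D298 replicate 2 at 4.54, fed N298 replicate 5 at 4.25 and fasted N298 replicate 2 at 3.50. On the fourth fed D298 replicate 3 in fat stood at 3.28 and fasted N298 replicate 6 at 4.73.

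The fasting response differed between the tissues for 5 probe sets. Fat minus liver was 0.86 and 1.77 for GADD45B, 1.22 and 1.79 for KLF11 and -0.79 for CDKN1A.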

How the results depend on the processing

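Of 790 values of single probe sets under 15 alternatives, 745 kept their direction and their side of the threshold, 20 lost a call, 5 gained one and 20 changed sign. Without the gilt as a block 5 member probe sets were called for the tissue difference and 10 between the tissues of fed gilts, the same counts as with it. Without the replicate block 1 was called in liver, 10 in fat and 0 for genotype and interaction, again the same counts. Deviations of same-numbered arrays correlated with a median r of 0.02 in fat and 0.01 in liver, over 0.1 in 4 and 0 of 36 pairs, so the deviations do not show that the numbers pair the arrays, and the block was kept because the labels describe one. Of the listed genes the text names, GABARAPL1 in liver lost its call without the block (adjusted p = 0.0580). Leaving out each number gave 8 to 10 called in fat, 1 in liver, 4 to 7 for the tissue difference, 9 to 10 between the tissues of fed gilts and 0 for genotype and interaction. Without the muscle-rich arrays 5 were called in fat, with fewer arrays in the fit.

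The sign changes were all of probe sets that were not called. Leaving out each replicate number moved fasting in liver from -0.016 to 0.14 for GADD45B (brighter probe set), -0.0011 to 0.24 for CCNG2, -0.045 to 0.25 for KLF11 (second) and -0.47 to 0.14 for AKT1 (second). Fasting in fat moved from -0.21 to 0.070 for SGK1 and -0.38 to 0.0083 for the third NR3C1 probe set. The tissue difference moved from -0.061 to 0.52 for the third NR3C1 probe set, which was -0.034 with 32 added, and from -0.23 to 0.23 for the fourth, which was -0.17 by quantile normalization, -0.12 median-centred, -0.017 with 32 added and -0.32 without the muscle-rich arrays. Between the tissues of fed gilts AKT1 (second) moved from -0.37 to 0.028, and KLF11 (second) was -0.077 by quantile normalization and -0.096 median-centred. The cause was not tested.

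Median-centring moved the share of higher calls over all probe sets from 60.1% to 43.2% for fasting in fat, from 50.8% to 68.1% in liver, from 54.9% to 28.0% for the tissue difference and from 64.6% to 47.3% in fed gilts, and the median of the tissue difference from 0.12 to -0.02. Dim probe sets and whole tissues limit the rest.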

Other observations

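The third and the fourth probe set of NR3C1 and the second of AKT1 were dim, and 0 of the 3 were called for fasting in either tissue. In liver the third of NR3C1 had a median log2 signal of 4.33 in fed and 3.87 in fasted gilts. On the fourth fasted fat ranged from 2.93 to 6.16 and fed fat from 2.42 to 6.59. The second probe set of AKT1 ranged from 2.21 to 6.17 in fasted fat, and its 95% interval for fasting ran from -0.59 to 1.11.

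Second probe sets of the listed genes differed in part from the brightest. In fasted liver TSC22D3 gave -1.27 on its other probe set (adjusted p = 0.0171), and GLUL gave -1.44 (adjusted p = 0.0116) and 0.10 on its others. KLF9 gave 0.20 (adjusted p = 0.697) on its other probe set, against -0.76 on the brightest, and that probe set gave -0.24 in fasted fat (adjusted p = 0.382). In fasted liver CDK2 gave -0.25 (adjusted p = 0.391) and -0.55 (adjusted p = 0.398) on its others. In fasted fat ANGPTL4 gave 1.21 (adjusted p = 0.000728) on its other probe set, and HSP90AA1 gave values from -0.20 to -0.72 on 4 others. NCOR1 gave -0.03 (adjusted p = 0.965) and 0.27 (adjusted p = 0.119) on its others, and NCOA1 gave values from 0.16 to 0.38. CDKN1B gave 0.43 (adjusted p = 0.0468) and 0.32 (adjusted p = 0.326). The 3' to 5' signal ratio of the GAPDH control probe sets had a median of 2.43 in fasted and 2.42 in fed fat, and of 3.01 in fasted and 2.74 in fed liver. That of the actin control probe sets had a median of 1.01 in fasted and 1.26 in fed fat, and of 0.247 in fasted and 0.235 in fed liver.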
